A study of Mus musculus with 8 samples.

Results

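The 42 genes described here are the heat shock factors and chaperone genes of Hepa 1-6 cells, a mouse hepatoma line, at basal temperature. They were taken by name from a list, 42 of the 21915 genes in the mRNA table, and all 42 were found through their Ensembl identifiers. The list holds 2 heat shock factors, 18 chaperones and co-chaperones known to be induced by heat or proteotoxic stress, 16 constitutive chaperones and 6 chaperones of the endoplasmic reticulum. The comparison was between 2 control and 2 Kap1 KD samples, which ask how depletion of KAP1, the corepressor protein encoded by Trim28, affects gene expression in these cells. Kap1 KD cells carried a pLKO vector with an shRNA against Kap1. Control cells carried a control shRNA per the labels, and an empty vector per the study's methods. Both groups were selected with puromycin, and the labels place the transduction 5 days before collection, although another label speaks of plasmid transfection. All samples were of 1 cell line and 1 shRNA, and no heat shock sample was analysed here. No source states that the samples of a group came from separate cultures, so the p-values measure only the spread between these samples, which may be technical.

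Heat shock factors are transcription factors that are held inactive in unstressed cells, trimerise when misfolded proteins accumulate and bind heat shock elements, which are alternating, inverted repeats of the bases GAA. Their targets are molecular chaperones. HSP70 and HSP90 proteins bind unfolded or immature clients, J-domain proteins (the Dnaj genes) deliver substrates to HSP70, small heat shock proteins hold aggregating proteins, and chaperonins enclose them. Many of these proteins exist as a constitutive and an inducible form, and the inducible HSP70 genes, Hspa1a and Hspa1b, are the classical readout of a heat shock response.

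The table held 41566888 to 53605115 counts per sample, and 14142 genes passed the filter on low counts. Trim28 itself was at 456 and 575 CPM (counts scaled to the normalised library size) in the control samples and at 106 and 78.9 in the Kap1 KD samples. Its log2 change was -2.48 (SE 0.25; edgeR adjusted p = 0.9999 in a fit without the replicate number, DESeq2 adjusted p = 9.1e-09 with that number as a block). Samples sharing a replicate number deviated together (r = 0.80), and the first principal component, with 74.4% of the variance, separated replicate numbers 1 and 2 rather than the groups. Calls over the whole list are therefore given from a fit without a block and from one in which the replicate number is the block. Most changes of single genes and role groups are given from the block fit alone. Standard errors were larger without the block, for example 0.61 against 0.10 for Dnajb4 and 0.47 against 0.11 for Cryab. The block fit leaves 1 residual degree of freedom and takes its spread from the trend over all genes. For a single value, an exact permutation test of 2 against 2 samples cannot go below p = 0.333. Hepatocyte markers summed to 2190 to 2539 CPM in control and 1200 to 1787 CPM in Kap1 KD samples. Of 12 such markers, 8 were at 1 CPM or more in every sample. Ttr, Apoa1, Ahsg and Serpina1a, all made by mature hepatocytes, stayed below 0.5 CPM. The 10 markers of other cell types summed to 33.8 to 47.4 CPM over the 4 samples, and none exceeded 29.0 CPM. Of these 10, 2 were at 1 CPM or more in every sample, Cd14 (16.7 to 29.0 CPM) and Epcam (8.57 to 16.5 CPM). Col1a1, Des and Krt19 exceeded 1 CPM in some samples. The leukocyte marker Ptprc and the endothelial marker Cdh5 were below 0.2 CPM throughout. The part of these markers in the results below was not tested.

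Promoters are shown first, because the heat shock element is what ties these genes to the heat shock factors. RefSeq promoter sequences (build GRCm38.p6, 250 bases before to 50 bases after the start) were at hand for 34 of the 42 genes. The other 8 could not be searched. They were the constitutive Hspa8, Hsp90ab1, Hspa9 and Dnajc5, the inducible Hsp90aa1 and Cryab, Hspa13 of the endoplasmic reticulum, and Hsf1. Both strands were searched for a pair of adjoining units, written GAANNTTC or TTCNNGAA. These motifs read the same on both strands. A pair was found for 12 of 16 inducible genes (75%), for 2 of 12 constitutive genes (16.7%), and for 0 of 5 endoplasmic reticulum genes. Among all 27025 genes with a promoter entry, 17.0% held such a pair, and 15.1% of all 32851 promoters did. Runs of 3 or more adjoining units, which contain overlapping pairs, are rarer, at 0.603% of all promoters and 0.662% of genes. They were found for 5 of the 34 genes, namely Hspd1, Hspe1, Hsph1, Chordc1 and Dnajb6. A match describes the letters of the promoter and is not evidence of binding. The inducible group was drawn up from knowledge of these genes, so group and promoter are not independent features.

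The stretches upstream of the start of Hspa1a (chr17:34972157-34972406, minus strand) and Hspa1b (chr17:34959239-34959488, minus strand) are shown because these neighbouring genes are the main inducible HSP70 genes and their promoters differ at 3 of 250 bases. The matching pair of units, which begins 104 bases before each start, is in capitals. The other 2 stretches show examples of runs of 3 or more units, also in capitals. They hold 18 bases in 4 units between Hspe1 and Hspd1 (chr1:55088044-55088096, plus strand) and 13 bases in 3 units before Dnajb6 (chr5:29735832-29735884, plus strand). The run of Chordc1, with overlapping matches of 3 units from bases -4, 2 and 7 relative to the start, is longer and is not shown. All coordinates in this paragraph are of GRCm38.p6.
Hspa1a: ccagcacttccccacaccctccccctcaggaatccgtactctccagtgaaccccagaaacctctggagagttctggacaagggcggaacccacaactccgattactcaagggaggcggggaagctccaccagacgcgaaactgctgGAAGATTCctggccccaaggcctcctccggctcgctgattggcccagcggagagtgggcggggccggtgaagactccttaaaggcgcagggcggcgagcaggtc
Hspa1b: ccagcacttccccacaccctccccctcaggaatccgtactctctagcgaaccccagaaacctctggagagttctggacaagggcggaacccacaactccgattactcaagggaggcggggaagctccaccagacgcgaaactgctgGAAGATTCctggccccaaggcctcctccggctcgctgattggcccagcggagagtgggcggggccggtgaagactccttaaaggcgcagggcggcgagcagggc
Hspe1: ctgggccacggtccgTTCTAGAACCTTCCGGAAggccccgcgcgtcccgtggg
Dnajb6: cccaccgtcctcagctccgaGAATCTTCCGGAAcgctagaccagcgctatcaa

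The levels of the 42 genes in the unheated cells ranged from 0.0054 for Dnaja4 to 1408 for Hsp90ab1. They are compared between genes as normalised CPM per kilobase of exon, with the mean ± SD over the 4 samples. Hsp90ab1, the constitutive cytosolic HSP90, was highest, at 1182 and 1535 per kilobase in control samples, against 1268 and 1648 under Kap1 KD (1408 ± 220, SD, n = 4). Hspa8, the constitutive cytosolic HSP70, stood at 818 and 1011 in control samples, against 890 and 1025 under Kap1 KD (936 ± 99.3). For both genes the samples numbered 2 were the higher ones in each group, and the groups overlapped. Hspd1, the mitochondrial chaperonin HSP60, came next at 458 ± 106, and here the samples numbered 2, at 364 and 369, lay below those numbered 1, at 553 and 546. Stip1, an adaptor that joins HSP70 to HSP90, followed at 394 ± 62.0, and Hspe1, the partner co-chaperonin of Hspd1, at 277 ± 11.1. Hspa5, the HSP70 of the endoplasmic reticulum, stood at 176 ± 7.95.

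In all, 10 genes had a mean of 100 or more per kilobase, 27 lay from 1 to 100, and 5 were below 1. The ranges over the 4 samples overlapped in 32 of the 41 pairs of neighbours in this order. They did not overlap between Hsp90ab1, Hspa8 and Hspd1 in turn, nor on either side of Hspa2, at 0.58 ± 0.15, an HSP70 known from the testis. The order depends on the gene length used. With the longest protein-coding transcript in place of all exons, a setting chosen after seeing the data, Hspe1 (528 per kilobase) came before Hspd1 (499), and Hspa8 rose to 1625 beside 1676 for Hsp90ab1. Part of the sequence of 13 of the 42 genes recurs elsewhere in the genome. Exact copies of 100-base windows were found for 71.3% of the windows of the Dnajb6 transcript, 63.8% for Hspa8, 60.4% for Hsp90aa1, 49.9% for Hspa1b, 48.7% for Hspb1 and 34.2% for Hspd1. The aligner reported 1 position per read, so the counts of these genes are uncertain.

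**Figure D1:**
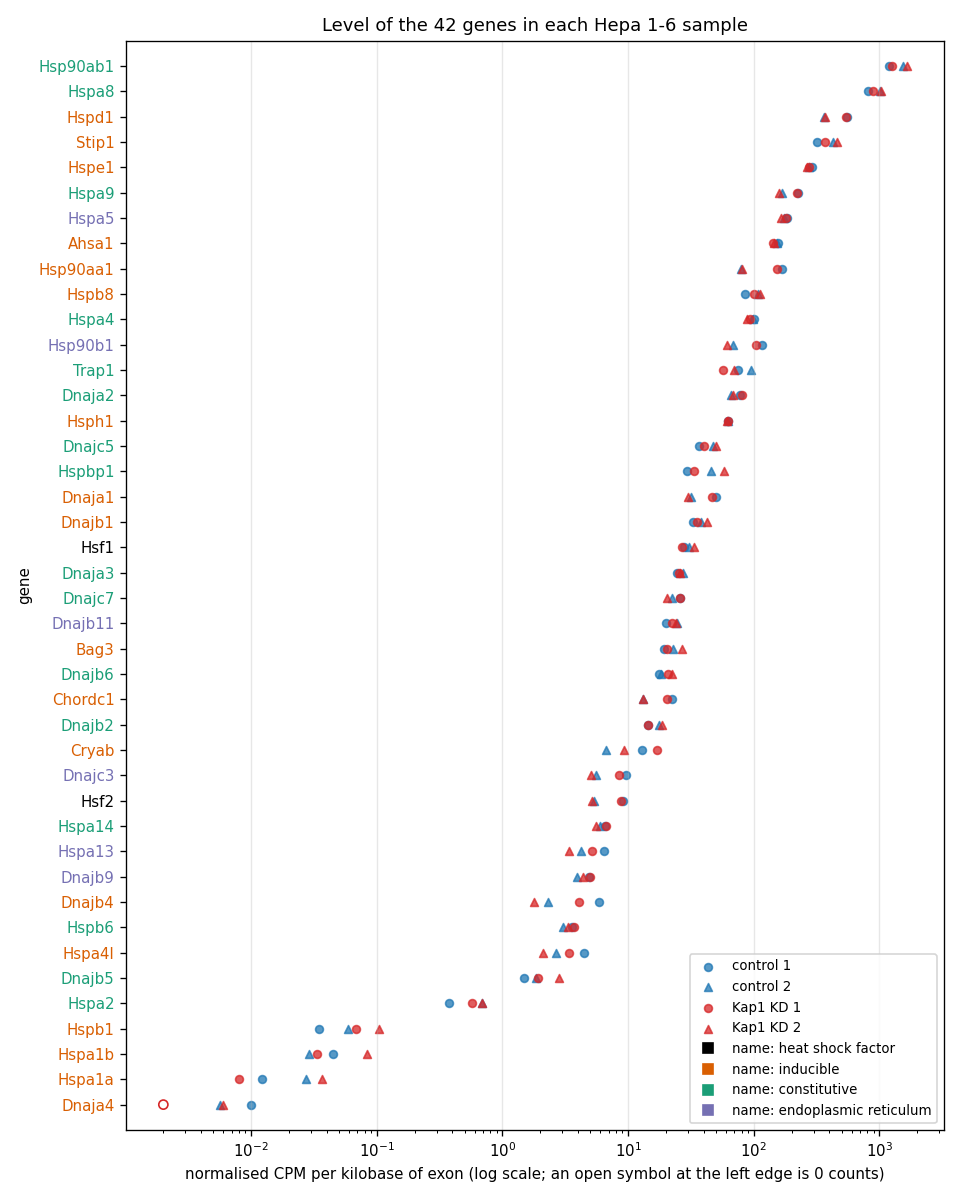
Normalised CPM per kilobase of exon (log axis) for the 42 genes in each of the 2 control and 2 Kap1 KD samples, with gene names coloured by role. Hsp90ab1 is highest at a mean of 1408, and Dnaja4, Hspa1a, Hspa1b and Hspb1 all lie below 0.2 in every sample.

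The classical inducible genes were close to silent. Hspa1a showed 2 and 4 counts under control conditions, against 1 and 5 counts under Kap1 KD. For Hspa1b, the control samples gave 7 and 4 counts, against 4 and 11 under Kap1 KD. The sample with most counts was Kap1 KD replicate 2 for both genes, and the groups overlapped. Of the 100-base windows of the Hspa1a transcript, 47.8% have an exact copy in Hspa1b, so reads may be split between both genes. A further gene on the opposite strand, Gm20481, covers 18.9% of the Hspa1a exon bases, and the strand setting of the counting is not given in the sources used here. Summed over both genes, 17 control and 21 Kap1 KD counts gave a Kap1 KD to control ratio of 1.46 (exact Clopper-Pearson 95% interval 0.73 to 2.94, counting error only). In the edgeR fit of the summed counts the log2 change was 0.52 (SE 0.69, adjusted p = 0.9999), and 0.47 (SE 0.61, adjusted p = 0.763) with the block. A change within that interval was not detectable at this depth. Per kilobase, Hspa8 exceeded the sum of Hspa1a and Hspa1b by 8514-fold to 21430-fold across the 4 samples.

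Hspb1, the small heat shock protein HSP27, was as low, with 2 and 3 counts in control samples, against 3 and 5 under Kap1 KD (ratio 1.89, exact 95% interval 0.54 to 7.32). Dnaja4, a J-domain protein, gave 2 and 1 counts in control samples, against 0 and 1 under Kap1 KD. Its exons overlap those of Wdr61 on the opposite strand over 44.1% of their bases. These 4 genes failed the filter on low counts and were not among the 38 genes tested. All 4 carry a pair of heat shock element units in their promoters.

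Other inducible genes were well expressed without heat. Hsph1, an HSP110 nucleotide exchange factor of HSP70, was at 439 and 440 CPM in control and 439 and 435 CPM in Kap1 KD samples, the smallest spread among the genes named here. Dnajb1, the main J-domain partner of HSP70 in heat-shocked cells, was at 81.7 and 93.2 CPM in control and 88.0 and 104 CPM in Kap1 KD samples. Ahsa1, which stimulates the ATPase of HSP90, was at 210 and 207 CPM in control and 190 and 194 CPM in Kap1 KD samples. Per kilobase, the median of the inducible genes was 27.1 to 28.5 over the 4 samples, and that of the constitutive genes 27.7 to 38.1. The inducible group thus held both the lowest genes of the list and several of its highest.

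The constitutive and inducible HSP90 genes differed in level, and both also differed between replicate numbers. Replicate 2 minus replicate 1 in the block fit was 0.38 (SE 0.06) for Hsp90ab1 and -0.99 (SE 0.06) for Hsp90aa1 on the log2 scale. The ratio of Hsp90ab1 to Hsp90aa1, the inducible form, per kilobase was 7.04 (control) and 8.33 (Kap1 KD) in the samples numbered 1, but 19.2 (control) and 20.3 (Kap1 KD) in those numbered 2. The replicate number, not the group, separated these values. The ratio of Hspa4 to Hspa4l, a pair of HSP110 genes, ranged from 22.8 to 42.3. For Hspa4 and Hsph1 it ranged from 1.44 to 1.62 over all exons and from 0.927 to 1.05 by longest transcript, so no order can be given for that pair.

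In the comparison of Kap1 KD with control, neither heat shock factor moved past a threshold. Hsf1, the master regulator of the heat shock response, was at 60.8 and 67.0 CPM in control and at 58.7 and 72.6 CPM in Kap1 KD samples. Its log2 change was 0.04 (SE 0.20, adjusted p = 0.9999 by edgeR) and, with the block, 0.03 (SE 0.08, adjusted p = 0.826). Hsf2, a heat shock factor that also acts in development, was at 24.5 and 14.3 CPM in control and at 23.4 and 13.8 CPM in Kap1 KD samples. Its log2 change with the block was -0.06 (SE 0.09, adjusted p = 0.728 by edgeR). For Hsf2 both samples numbered 2 lay below both samples numbered 1, while control and Kap1 KD overlapped.

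At a 1.5-fold change and an adjusted p under 0.05, 0 of the 38 tested chaperone and heat shock factor genes were called by edgeR without the block, beside 0% of all 14142 genes. At an unadjusted p under 0.05 stood 0 of the 38 and 185 of the 14142, and DESeq2 called 0 of the 38 and 3 of all genes. With the block, 0 of the 38 were called beside 4.46% of all genes, and 15 of the 38 (39.5%) had an unadjusted p under 0.05, beside 4627 of the 14142 (32.7%). DESeq2 with the block called 0 of the 38 and 234 of all genes. With each of the 4 samples left out in turn, edgeR called 0 of the 38 or 39 listed genes then tested, and 3 to 65 of all genes. No tested gene of the list therefore changed by 1.5-fold at these thresholds, and the largest block change was 0.48 on the log2 scale. The median log2 change of the 38 genes with the block was -0.002, beside -0.016 over all tested genes. Both Kap1 KD samples lay above both control samples for 2 of the 38 (all genes, 9.69%), Dnajb5 and Dnajb6, and below them for 4 (all genes, 10.6%), Trap1, Hspa4, Ahsa1 and Hsph1. The last is a matter of 435 to 440 CPM, within which the groups are barely apart.

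Without the fold threshold, 10 of the 38 genes (26.3%) passed an adjusted p under 0.05 in edgeR's block fit, beside 21.6% of all genes. Of these, 5 rose (10.1% of all genes) and 5 fell (11.5% of all genes). Without the block 0 of the 10 passed, and in 7 of the 10 the control and Kap1 KD samples overlapped. DESeq2 with the block passed 4 of the 38 (6.07% of all genes), Trap1, Hspa4l, Dnajb6 and Dnajb5.

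**Figure D2:**
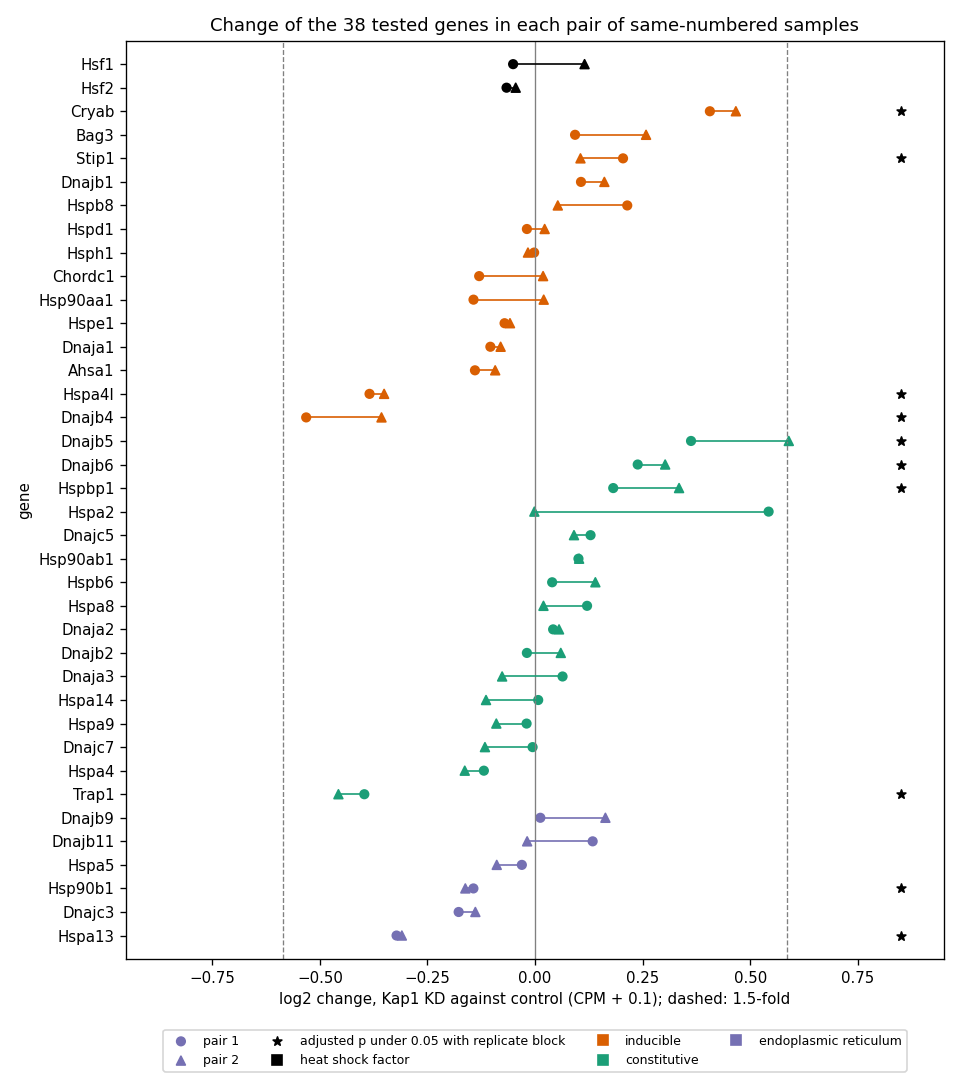
Log2 change of Kap1 KD against control (CPM plus 0.1) in the pair of replicates 1 (circles) and of replicates 2 (triangles) for the 38 tested genes, grouped by role and coloured likewise, with 1.5-fold dashed. Stars mark the 10 genes with an adjusted p under 0.05 in edgeR's block fit, and only the pair 2 value of Dnajb5, at 0.59, reaches the dashed line.

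Among the constitutive genes, 3 rose and 1 fell of 16 tested, with a median log2 change of 0.06 with the block. In that fit 10.1% of all tested genes rose and 11.5% fell at an adjusted p under 0.05. Trap1 (chr16:4039971-4078410, minus strand, mm9), the HSP90 of mitochondria, was at 194 and 248 CPM in control and at 147 and 181 CPM in Kap1 KD samples. Both Kap1 KD values lay below both control values. Its log2 change with the block was -0.43 (SE 0.06, edgeR adjusted p = 4.7e-10), and without the block -0.43 (SE 0.22, adjusted p = 0.9999). Dnajb5 (chr4:42962686-42972297, plus strand, mm9), a J-domain protein, was at 8.85 and 11.04 CPM in control and at 11.4 and 16.7 CPM in Kap1 KD samples, also without overlap. Its log2 change was 0.48 (SE 0.11, edgeR adjusted p = 2.3e-04 with the block), and DESeq2 with the block placed it just inside the threshold, at an adjusted p of 0.04995.

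Dnajb6 (chr5:30062228-30113018, plus strand, mm9), a J-domain protein that suppresses aggregation, rose from 101 and 105 CPM in control to 119 and 129 CPM in Kap1 KD samples. This is the gene with most copied windows, and its log2 change with the block was 0.27 (SE 0.07, edgeR adjusted p = 0.0029). Hspbp1, a nucleotide exchange factor of HSP70, was at 44.0 and 68.3 CPM in control and at 49.9 and 86.1 CPM in Kap1 KD samples, a log2 change of 0.26 (SE 0.08, edgeR adjusted p = 0.011 with the block). Its groups overlapped, since the samples numbered 2 were the high ones in each. Hspa4, an HSP110, fell short of the threshold with 558 and 549 CPM in control and 514 and 490 CPM in Kap1 KD samples (log2 change -0.14, SE 0.06, edgeR adjusted p = 0.055 with the block). The major forms Hsp90ab1 (log2 change 0.10, SE 0.06) and Hspa8 (0.07, SE 0.06) did not pass either, at edgeR adjusted p values of 0.220 and 0.431 with the block. Without the filter on low counts, however, the block fit passed Hsp90ab1 (log2 change 0.11, SE 0.04, edgeR adjusted p = 0.036), beside 12.6% of all genes in that fit.

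Among the inducible genes, 2 rose and 2 fell of 14 tested, beside 10.1% and 11.5% of all tested genes. Their median log2 change was -0.03 with the block. Cryab (chr9:50560863-50564738, plus strand, mm9), the small heat shock protein alpha-B crystallin, rose from 15.2 to 20.2 CPM in pair 1 and from 7.86 to 10.9 CPM in pair 2. The log2 change was 0.44 (SE 0.11, edgeR adjusted p = 6.3e-04 with the block). Stip1 went from 695 to 801 CPM in pair 1 and from 928 to 998 CPM in pair 2, a log2 change of 0.16 (SE 0.06, edgeR adjusted p = 0.040 with the block). Dnajb4 (chr3:151841475-151873243, minus strand, mm9), a J-domain protein, fell from 25.5 to 17.6 CPM in pair 1 and from 9.94 to 7.74 CPM in pair 2. Its log2 change was -0.46 (SE 0.10, edgeR adjusted p = 2.0e-04 with the block). Hspa4l (chr3:40548417-40600025, plus strand, mm9), an HSP110 known from the testis, fell from 52.2 to 39.9 CPM and from 31.6 to 24.7 CPM, a log2 change of -0.37 (SE 0.08, edgeR adjusted p = 3.4e-05 with the block). In all 4 of these genes the control and Kap1 KD samples overlapped, and the change stands only within pairs.

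Of the 5 genes with runs of 3 or more units, the constitutive Dnajb6 rose, as given above, and the 4 inducible ones did not pass, beside 21.6% of all genes that passed. Hspd1 and Hspe1, which share the 4 adjoining units printed above, had log2 changes of 0.002 (SE 0.06) and -0.06 (SE 0.05) with the block, Hsph1 one of -0.01 (SE 0.05) and Chordc1, a co-chaperone of HSP90, one of -0.06 (SE 0.08). Hspd1 and Hspe1 also overlap each other on opposite strands over 4.24% and 7.60% of their exon bases. Bag3, a co-chaperone of HSP70 in selective autophagy, stood at 49.9 and 58.5 CPM in control and at 53.3 and 69.9 CPM in Kap1 KD samples (log2 change 0.18, SE 0.08, edgeR adjusted p = 0.102 with the block). The median change of the inducible genes minus that of the constitutive genes was -0.10 in pair 1 and -0.02 in pair 2 on the log2 scale. No test was made of that difference.

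Of the 6 endoplasmic reticulum genes, 2 fell, none rose and 4 did not pass, with a median log2 change of -0.11 with the block. In that fit 11.5% of all tested genes fell and 10.1% rose at an adjusted p under 0.05. Hspa13, a microsomal HSP70, fell from 37.99 to 30.4 CPM in pair 1 and from 24.8 to 19.99 CPM in pair 2 (log2 change -0.32, SE 0.08, edgeR adjusted p = 0.0017 with the block). Hsp90b1, the endoplasmic reticulum HSP90 known as GRP94, went from 466 to 422 CPM and from 277 to 248 CPM (log2 change -0.15, SE 0.05, edgeR adjusted p = 0.024 with the block). Neither passed once each sample's trend with GC content was removed, and Hsp90b1 also did not pass in the block fit without the filter on low counts. Hspa5, the sentinel of the unfolded protein response, was at 645 and 617 CPM in control and at 631 and 580 CPM in Kap1 KD samples, a log2 change of -0.06 (SE 0.06). Dnajb9, a J-domain target of the same response, was at 9.19 and 7.34 CPM in control and at 9.27 and 8.23 CPM in Kap1 KD samples, with the highest change of the group at 0.09 (SE 0.12). Hspa5 and Dnajb9 did not pass, with edgeR adjusted p values of 0.505 and 0.673 with the block.

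**Figure D3:**
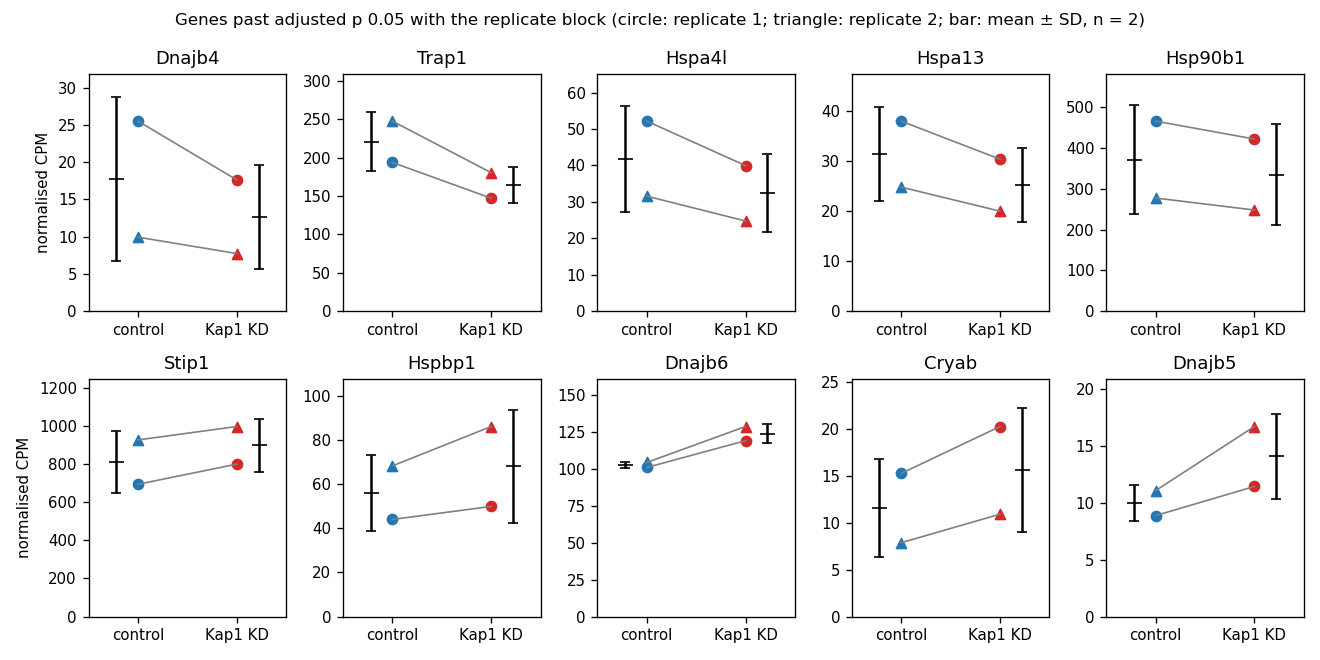
Normalised CPM (linear axes from 0) in each sample for the 10 genes past an adjusted p of 0.05 in edgeR's block fit, with same-numbered samples joined by lines and bars giving the mean ± SD (n = 2 per group). Every line of the upper 5 genes falls and every line of the lower 5 rises, while only Trap1, Dnajb6 and Dnajb5 have groups that do not overlap. The 10 genes were chosen by that fit, which favours genes that move alike in both pairs.

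The difference between replicate numbers was larger than that between groups for 32 of the 38 genes. The exceptions were Hspa4, Hsph1, Dnajb5, Dnajb6, Ahsa1 and Trap1. This count was not made over all tested genes, so it cannot be read as particular to the list. Between groups, the block fit called 4.46% of all genes at 1.5-fold and an edgeR adjusted p under 0.05. In the block fit, an added contrast of replicate 2 with replicate 1 called 11 of the 38 genes at 1.5-fold and an edgeR adjusted p under 0.05, beside 26.5% of all genes. Of these, 10 were lower in replicate 2 (17.4% of all genes) and 1, Hspbp1, was higher (9.08% of all genes). Dnajb4 differed by -1.28 (SE 0.10) on the log2 scale, Hsp90aa1 by -0.99 (SE 0.06), Cryab by -0.92 (SE 0.11) and Hsf2 by -0.77 (SE 0.09). The inducible genes had a median of -0.33, with 6 of 14 lower and 0 higher, and the constitutive genes a median of 0.17, with 0 lower and 1 higher. The endoplasmic reticulum genes had a median of -0.43, with 3 of 6 lower.

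These differences moved with base composition. The 10 genes lower in replicate 2 had transcripts of 39.2% to 53.7% GC, and Hspbp1 had 60.2%, beside a median of 50.3% over all tested genes with a value. Across the 38 genes, GC content and the replicate difference had a Pearson's r of 0.74 and a Spearman's rho of 0.73, and across 12417 genes 0.60 and 0.68. For the Kap1 KD change of the block fit the values were 0.55 and 0.60 across the 38 genes, and 0.25 and 0.33 across 12417 genes. These are descriptions across genes of the same 4 libraries, and genes are not independent replicates.

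**Figure D4:**
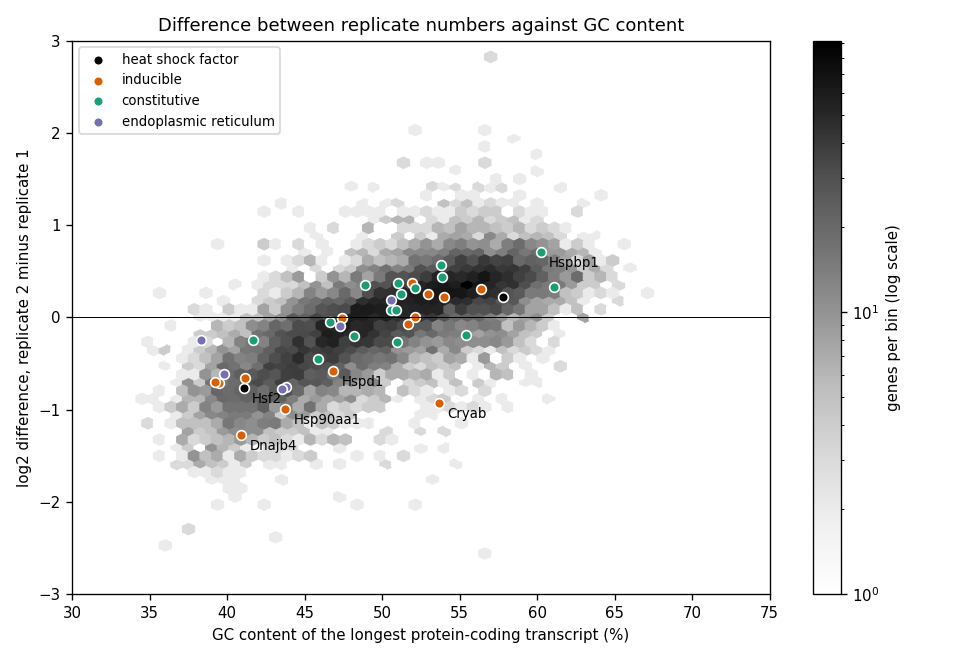
Log2 difference of replicate 2 minus replicate 1 in edgeR's block fit against the GC content of the longest protein-coding transcript, with all tested genes in grey bins and the 38 genes as points coloured by role. Points of low GC content lie mostly below 0, with Dnajb4 at -1.28, and Hspbp1, at 60.2% GC, lies at 0.71.

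When the trend of each sample with GC content was removed in the same block fit, a setting chosen after seeing the data, 8 of the 38 genes passed an edgeR adjusted p under 0.05, beside 24.1% of the genes fitted. Trap1 (log2 change -0.44, SE 0.05), Dnajb5 (0.46, SE 0.10), Dnajb6 (0.28, SE 0.06), Cryab (0.41, SE 0.10), Dnajb4 (-0.31, SE 0.10) and Hspa4l (-0.21, SE 0.07) were the 6 that passed both ways. Hspa13, Hsp90b1, Hspbp1 and Stip1 no longer passed, with changes of -0.16, -0.04, 0.15 and 0.15 on the log2 scale. Dnaja2 (0.19, SE 0.05) and Dnajc5 (0.14, SE 0.05), both J-domain proteins, passed only there. Dnaja2 was at 222 and 187 CPM in control and at 229 and 194 CPM in Kap1 KD samples, and Dnajc5 at 36.7 and 47.4 CPM per kilobase in control and at 40.1 and 50.5 CPM per kilobase in Kap1 KD samples. For both genes the groups overlapped. With the correction, 0 endoplasmic reticulum genes passed.

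Of 69 tested genes of 4 further lists, 9 rose and 8 fell at an edgeR adjusted p under 0.05 with the block, and 0 reached 1.5-fold, with a median log2 change of 0.04. These 17 genes are 24.6% of the 69, beside 21.6% of all genes. With the block and GC correction 14 rose and 5 fell (27.5% of the 69, beside 24.1% of the genes fitted), and 9 of the 17 passed both ways while 8 did not. Which genes passed therefore depended on the correction in each list.

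Of 13 TRiC and prefoldin genes, which fold actin and tubulin, 0 passed with the block alone, beside 21.6% of all genes. With the block and GC correction 6 rose, beside 12.5% of the genes fitted. They were Tcp1, Cct2, Cct3, Cct4, Cct8 and Pfdn2. Cct4, a TRiC subunit, had the largest of these changes, at 0.22 (SE 0.06, edgeR adjusted p = 6.5e-04) on the log2 scale with the correction and 0.13 (SE 0.06) without it. Of 19 other endoplasmic reticulum folding and unfolded protein response genes, the stress sensor Atf6 rose with the block (0.31, SE 0.07) and with the correction (0.39, SE 0.05). Dnajc10 and Pdia4 fell both ways, Canx fell with the block alone (-0.17, and -0.04 with the correction), and Edem1 and Manf rose with the correction alone.

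Of 22 other co-chaperone genes, 4 rose and 5 fell with the block, and 3 rose and 3 fell with the block and GC correction. The shares over all genes were 10.1% and 11.5% with the block, and 12.5% and 11.6% with the correction. The widest change was that of Bag2, an inhibitor of the ubiquitin ligase CHIP, at 76.6 and 97.4 CPM in control and 61.4 and 63.9 CPM in Kap1 KD samples (log2 change -0.46, SE 0.08, and -0.46, SE 0.06, with the correction). Cdc37, Hspbap1, Bag2 and Dnajc21 passed both ways. Stub1, Bag6, Ptges3, Tomm70a and Cacybp passed with the block alone, and St13 and Fkbp5 with the correction alone. Of 15 tested other heat shock genes, 4 rose and 0 fell with the block, namely Hmox1, which degrades haem, and the mitochondrial genes Lonp1, Clpp and Grpel1. With the correction Hmox1 and Grpel1 still rose, while Lonp1 and Clpp did not pass. Hmox1 was at 18.9 and 48.0 CPM in control and 21.9 and 59.6 CPM in Kap1 KD samples, so that its groups overlapped (log2 change 0.26, SE 0.08).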

How the data were processed

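Messenger RNA of 2 control and 2 Kap1 KD Hepa 1-6 samples was analysed, and the small RNA libraries were not analysed here. Per the labels and methods, the authors prepared libraries with a stranded kit, aligned single-end reads to mm9 with TopHat2 2.0.11, reporting 1 alignment per read, and counted with HTSeq 0.6.1. The deposited values are raw counts per Ensembl gene, without normalisation, and all 4 columns were mapped to samples.

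Counts were fitted over the whole table with edgeR 4.0.16 in R 4.3.3 (filterByExpr, TMM, quasi-likelihood test, Benjamini-Hochberg adjustment), without a replicate block. Calls needed a 1.5-fold change and an adjusted p under 0.05. The alternative fits used the replicate number as a block, DESeq2 1.42.0, other scaling, no filter and each sample left out. The labels number 1 sample per group as 2 and the other was taken as 1, so the pairing is partly inferred. Fold changes within pairs were taken as log2 of normalised CPM plus 0.1. Levels per kilobase used the union of exons of the mm9 annotation. The GC correction used a lowess trend per sample as an offset, for the 12417 genes (87.8%) with a protein-coding transcript. The scripts were tested on simulated data.

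The genes and lists were chosen with earlier results of these data known. Values for each sample are given for Trim28, the heat shock factors, Hspa1a, Hspa1b, listed genes passing in any fit, genes whose groups do not overlap, the highest and lowest levels and the largest changes of each role. Hsp90aa1, Hspe1, Hspa2, Hspa5, Chordc1, Dnajb1 and Bag3, and from the further lists the sample values of Bag2 and Hmox1, were added after their values were seen. Other genes of the further lists are given by name and count. RefSeq promoters matched 34 of the 42 genes. Reads are not independent molecules, so intervals cover counting error only.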

Additional observations from a re-analysis of the deposited data

How the results depend on the processing

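The count of chaperone and heat shock factor genes called was 0 under every test, scaling and filter tried and with each sample left out. It rose only when the fold threshold was dropped, to 10 with the replicate block, to 10 with the block and no filter (Hsp90ab1 gained and Hsp90b1 lost) and to 8 with the block and GC correction. By DESeq2 with the block it rose to 4. Without the block it stayed at 0 by edgeR and by DESeq2. With TMM, RLE or total count scaling, no filter or GC correction, edgeR without the block passed 0 of all genes, Trim28 included. Those fits therefore could not have passed a gene of the list with a smaller change, and their 0 is not informative. The count over all genes, 0 in edgeR without the block, was 631 with the replicate block, 625 with the block and no filter, 499 with the block and GC correction, 3 by DESeq2, 234 by DESeq2 with the block, and 3 to 65 with 1 sample left out (21, 21, 65 and 3 without control replicate 1, control replicate 2, Kap1 KD replicate 1 and Kap1 KD replicate 2). On the adjusted p alone it was 3052 with the block and 2994 with the block and GC correction. Trim28 kept its direction throughout, also with 1 sample left out (-2.71 to -2.28). It passed in edgeR with the replicate block (-2.48, or -2.47 with the block and no filter and -2.58 with the block and GC correction). By DESeq2 it passed without the block (-2.47) and with it (-2.48). In edgeR without the block it did not pass, whether with TMM, RLE or total count scaling, no filter or GC correction. With 1 sample left out, an unpaired sample enters. Each of these fits leaves 1 sample in a group, and that sample is assumed to vary like the other group.

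The median log2 change of the listed genes, -0.0051 without the block, was 0.0046 by DESeq2, 0.0046 with RLE scaling, 0.0074 by DESeq2 with the replicate block, -0.049 with total counts, 0.022 without the filter (0.021 with the block), 0.052 with GC correction (0.052 with the block), and -0.072 to 0.033 with 1 sample left out. The inducible median was -0.083 with total counts, 0.058 with GC correction (0.061 with the replicate block), and -0.099 to 0.074 with 1 sample left out. The constitutive median was 0.069 by DESeq2 with the replicate block, 0.069 with the block and no filter, 0.011 with total counts, and -0.037 to 0.14 with 1 sample left out. The inducible minus the constitutive median was 0.0052 with GC correction (0.0047 with the replicate block) and -0.23 to 0.11 with 1 sample left out.

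Directions were compared only for Trim28 and genes named above, many of them chosen for their changes, and not for the whole list or all genes. Of 27 genes whose change was recomputed under every alternative, 7 (Trim28, Trap1, Hspa4, Hspe1, Ahsa1, Dnajb5 and Dnajb6) kept their direction and 20 did not. Hspa1a, Hspa1b, Hspb1 and Dnaja4 failed the filter and could be recomputed under few alternatives. Hspd1 turned positive with the replicate block (0.0018), by DESeq2 (0.0080, and 0.011 with the block), with RLE scaling (0.0080), without the filter (0.0091, and 0.011 with the block) and with GC correction (0.065, and 0.070 with the block). Hsph1 turned positive by DESeq2 (0.00039, and 0.00042 with the replicate block), with RLE scaling (0.00039), without the filter (0.00040, and 0.00045 with the block) and with GC correction (0.052, and 0.051 with the block). GC correction, without and with the replicate block, also turned Hsf1 (-0.052 and -0.051), Hsf2 (0.089 and 0.089), Hsp90aa1 (0.035 and 0.051), Hspa5 (0.0024 and 0.0025) and Chordc1 (0.10 and 0.10), and total counts turned Hsf1 (-0.013). With 1 sample left out, the change was -0.11 to 0.18 for Hsf1, -0.49 to 0.38 for Hsf2, -0.76 to 0.033 for Hspa4l, -0.12 to 0.010 for Hspa5, -0.080 to 0.25 for Hspa8, -0.65 to 0.021 for Hspa13, -0.61 to 0.54 for Hsp90aa1, -0.092 to 0.32 for Hsp90ab1, -0.58 to 0.27 for Hsp90b1, -0.082 to 0.98 for Cryab, -0.31 to 0.33 for Hspd1, -0.014 to 0.012 for Hsph1, -0.16 to 0.65 for Hspbp1, -0.072 to 0.18 for Dnaja2, -1.20 to 0.35 for Dnajb4, -0.051 to 0.25 for Dnajb9, -0.067 to 0.32 for Dnajc5, -0.017 to 0.37 for Bag3, -0.41 to 0.36 for Chordc1 and -0.046 to 0.39 for Stip1. The cause was not tested.

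With 2 samples per group, 1 residual degree of freedom with the block and a replicate difference larger than the group difference for most of these genes, changes well below 1.5-fold rest on the pairing. Levels per kilobase stayed within 1 SD under total counts for all 42 genes, and moved by more with the longest transcript for 18. Adding 1 CPM in place of 0.1 moved 4 of 84 pair changes by more than the spread between pairs. The planned count of snoRNAs inside these genes gave no value.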
